A study of Mus musculus with 6 samples.

Results

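Interferon regulatory factors (IRFs) are transcription factors that switch on the genes of the antiviral and interferon response, and several of them also set the identity of immune cells. The 8 genes Irf1, Irf2, Irf3, Irf4, Irf5, Irf7, Irf8 and Irf9 were chosen by name from the 32285 genes of a count table. Earlier results of these data were known when they were chosen. All 8 had a row and all 8 passed the filter on low counts, so each one is described here.

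The table comes from bulk RNA sequencing of mouse retinas in oxygen-induced retinopathy (OIR). In this model high oxygen obliterates vessels of the central retina, and the return to room air leaves part of the retina ischemic. All C57BL/6J wild-type pups were kept with their mothers in 75% O2 from postnatal day (PN) 8 to PN13 and their retinas were taken at PN18, so that both groups carry OIR and neither is an untreated retina. The 3 OIR-CIH libraries came from pups then given chronic intermittent hypoxia (CIH) for 10 h a day, in 266 cycles of 135 s in which O2 went from 20.95% down to 5%. The 3 OIR-Norm libraries came from pups under an equal flow of gas at constant O2, and the comparison asks what CIH adds to OIR.

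In the textbook pathway, Toll-like receptors and cytosolic sensors of nucleic acid lead to phosphorylation of IRF3 and IRF7, which enter the nucleus and turn on type I interferon genes. Secreted interferon then acts through its receptors and the kinases JAK1 and TYK2 on a complex that holds STAT2 and IRF9 and turns on the interferon-stimulated genes, and Irf7 is itself such a gene. In the retina, IRF8 is known as a factor of microglia, the resident immune cells.

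The library totals ran from 26289905 to 38010151 counts. No replicate pair agreed within sampling noise. The methods give 3 eyes for each group of 3 libraries, while all 6 libraries held both Xist and Y-linked RNA, so how many animals a library holds is not known, and p-values measure the spread between these libraries. Cages were assigned to a condition, so cage or litter and CIH cannot be told apart. The OIR-Norm 2 library held more lens RNA than the other 5: its summed lens markers were at 246 CPM, the reads of a gene scaled to a common library total, against 10.3 to 41.9 CPM in OIR-CIH. The markers of photoreceptors and other retinal cells summed to 46904 to 60248 CPM over the 6 libraries, and 18 of 22 were higher in OIR-CIH by sign (median log2 fold change 0.12, or 0.058 without OIR-Norm 3 and 0.077 without OIR-CIH 3), with 0 called by any tool and 4 at an unadjusted p under 0.05. All 5 lens markers were lower by sign, with a median of -1.69 that went to 0.22 without OIR-Norm 2, 0 called by any tool and 2 at an unadjusted p under 0.05. Over all genes tested, 13.4% had an unadjusted p under 0.05 by edgeR.

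Regulatory sequence just before the start site is shown for the 3 members whose promoter window held a motif of the interferon pathway. RefSeq windows of the GRCm38.p6 build, from 250 bases before to 50 bases after each start site, were found for 8 of 8 genes, 11 windows in all. Both strands were searched for the GAAA repeat that IRFs bind, written as GAAA, any 2 bases and GAAA again, and for TTCNNNGAA, a palindrome that activated STAT factors bind. The GAAA repeat was in 3.44% of 32851 promoters of that length and TTCNNNGAA in 8.30%. The windows below are on the plus strand, which is also the strand of the 3 genes, with the matches in capitals.
Irf1, chr11:53769904-53769952: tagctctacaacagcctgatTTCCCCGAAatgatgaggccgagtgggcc
Irf2, chr8:46739495-46739549: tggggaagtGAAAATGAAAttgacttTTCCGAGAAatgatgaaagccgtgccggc
Irf8, chr8:120736167-120736233: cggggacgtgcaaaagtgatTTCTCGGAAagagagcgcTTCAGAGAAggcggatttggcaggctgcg
Counted from the start site, with negative positions before it, the match to TTCNNNGAA in Irf1 began at -90. In Irf2 a GAAA repeat began at -241 and a TTCNNNGAA at -224, without overlap. In Irf8 the TTCNNNGAA matches began at -171 and -153. These letters were not in the windows of Irf3, Irf4, Irf5, Irf7 or Irf9, nor in the other window of Irf1 and of Irf8. That says nothing of binding outside the windows, and sites that differ from these letters were not searched for.

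No member was called different between OIR-CIH and OIR-Norm, where a call needed both an adjusted p below 0.05 and a log2 fold change of more than 0.5 in size. Of all 20021 genes tested, 63 were called (0.315%), 21 higher (0.105%) and 42 lower in OIR-CIH (0.21%). Without the minimum fold change, 0.39% of genes passed and again 0 of 8 members. By edgeR's quasi-likelihood test, 2 members had an unadjusted p under 0.05, Irf7 on the higher and Irf1 on the lower side, and 13.4% of all genes did so. DESeq2, limma and limma-voom also called 0 members. Groups did not overlap in CPM for the same 2 members, against 18.4% of all genes tested.

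**Figure D1:**
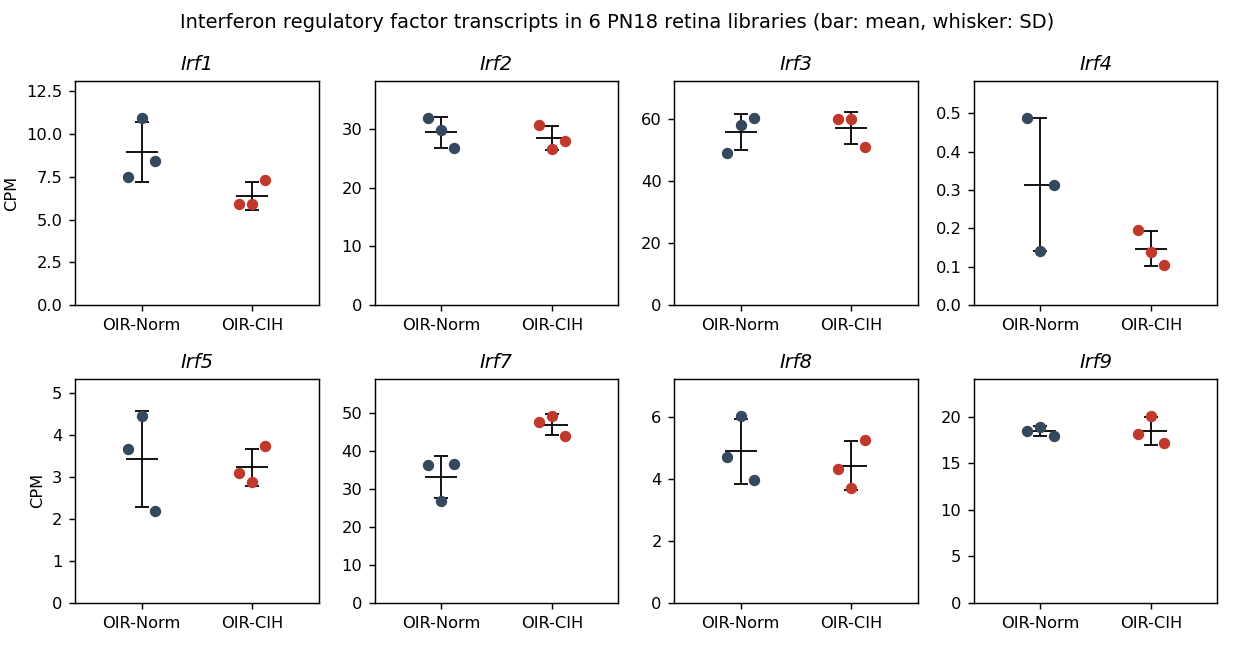
CPM of each of the 8 IRF genes (y axis, linear from 0, its own scale in each panel) in the 3 OIR-Norm and 3 OIR-CIH libraries (x axis). Points are libraries, the long bar is the mean and the whisker the SD. The groups are apart for Irf7, with OIR-CIH above, and for Irf1, with OIR-CIH below.

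Irf7, which amplifies the type I interferon response and is induced by it, had the lowest p of the family (ENSMUSG00000025498, chromosome 7, 141262706 to 141266481, minus strand, GRCm38). It was at 47.7, 49.2 and 43.9 CPM in the OIR-CIH libraries and at 36.3, 26.8 and 36.5 CPM in the OIR-Norm libraries, from 763 to 1658 reads each. Every OIR-CIH library was above every OIR-Norm library, and OIR-Norm 2 was the lowest of the 6. The means were 46.9 ± 2.75 and 33.2 ± 5.56 CPM (SD, n = 3 each), a 1.41-fold ratio. The log2 fold change was 0.498, SE 0.11, with a 95% interval from 0.25 to 0.74. Its adjusted p was 0.127 with edgeR and Benjamini-Hochberg adjustment, rank 127 of the 20021 genes by p, so it passed neither the p threshold nor, by 0.00233, the fold threshold. The exact two-sided permutation p was 0.1, the smallest that 3 against 3 libraries allow. Without OIR-Norm 2 the log2 fold change was 0.37, and with Y-linked RNA as a covariate it was 0.62 with an edgeR adjusted p of 0.0491, the only setting tried in which a member was called. DESeq2 gave an adjusted p of 0.00475, with a log2 fold change of 0.4995 that missed the fold threshold.

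Irf3, the constitutive partner of Irf7 in turning on interferon genes, differed by less than the spread between replicates (ENSMUSG00000003184, chromosome 7, 44997648 to 45002848, plus strand). It was at 60.1, 60.1 and 51.0 CPM in OIR-CIH and at 49.1, 58.0 and 60.2 CPM in OIR-Norm. The groups overlapped over nearly their whole range. Its log2 fold change was 0.03, SE 0.10, with an interval from -0.18 to 0.24 and an edgeR Benjamini-Hochberg adjusted p of 0.913.

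Irf5, which acts below Toll-like receptors in myeloid cells, was low and variable (ENSMUSG00000029771, chromosome 6, 29526625 to 29541871, plus strand). It was at 3.10, 2.88 and 3.73 CPM in OIR-CIH and at 3.67, 4.46 and 2.20 CPM in OIR-Norm. The highest and the lowest value were both in OIR-Norm, whose coefficient of variation was 33.3% against 9.89% from counting alone. The log2 fold change was -0.06, SE 0.24, with an interval from -0.58 to 0.45 and an edgeR Benjamini-Hochberg adjusted p of 0.933. The interval reaches past the fold threshold on the lower side. Of its annotated exon bases, 14.1% overlap Tnpo3 on the opposite strand, and the sources do not say which strand was counted.

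Irf9, the DNA-binding subunit of the complex with STAT2, had nearly the same mean in both groups (ENSMUSG00000002325, chromosome 14, 55603571 to 55610030, plus strand). It was at 18.2, 20.1 and 17.2 CPM in OIR-CIH and at 18.5, 18.9 and 17.9 CPM in OIR-Norm. The OIR-Norm values lay inside the OIR-CIH range. The means were 18.5 ± 1.46 and 18.5 ± 0.504 CPM, and the interval of the log2 fold change ran from -0.20 to 0.20, with an edgeR Benjamini-Hochberg adjusted p of 0.999.

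Irf1, an activator induced by interferon gamma, lay lower in OIR-CIH without passing the test (ENSMUSG00000018899, chromosome 11, 53770014 to 53778374, plus strand). It was at 5.89, 5.89 and 7.30 CPM in OIR-CIH and at 7.46, 10.9 and 8.45 CPM in OIR-Norm. The groups did not overlap, but the highest OIR-CIH and the lowest OIR-Norm library were close. The means were 6.36 ± 0.816 and 8.94 ± 1.77 CPM. The log2 fold change was -0.48, SE 0.16, with an interval from -0.82 to -0.13, an edgeR Benjamini-Hochberg adjusted p of 0.273 and an exact permutation p of 0.1. Without OIR-Norm 2, the highest library, it was -0.31. Its promoter window is the first of those printed above.

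Irf2, which binds the same sites as IRF1 and is known as a repressor there, overlapped between the groups (ENSMUSG00000031627, chromosome 8, 46739732 to 46847458, plus strand). It was at 30.6, 26.6 and 27.97 CPM in OIR-CIH and at 31.7, 29.7 and 26.6 CPM in OIR-Norm. On the log2 scale the fold change was -0.05, SE 0.09, with an interval from -0.25 to 0.15 and an edgeR Benjamini-Hochberg adjusted p of 0.853.

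Irf8, the microglial and myeloid factor, also overlapped (ENSMUSG00000041515, chromosome 8, 120736358 to 120756694, plus strand). It was at 4.32, 3.71 and 5.27 CPM in OIR-CIH and at 4.71, 6.03 and 3.96 CPM in OIR-Norm. The highest library was OIR-Norm 2 and the lowest OIR-CIH 2, with the other 4 mixed between them. Its log2 fold change was -0.12, SE 0.19, with an interval from -0.54 to 0.29 and an edgeR Benjamini-Hochberg adjusted p of 0.814.

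Irf4, a factor of lymphocytes and dendritic cells, was close to the limit of detection (ENSMUSG00000021356, chromosome 13, 30749226 to 30766976, plus strand). It had 5, 4 and 4 reads in the OIR-CIH libraries and 15, 4 and 10 reads in the OIR-Norm libraries, where 3 reads correspond to 0.0789 to 0.114 CPM. OIR-Norm 2 was as low as the OIR-CIH libraries. The log2 fold change of -1.15, SE 0.57, had an interval from -2.39 to 0.09 and an edgeR Benjamini-Hochberg adjusted p of 0.406, the widest interval in the family. It was -0.70 without OIR-Norm 1 and -0.31 with limma on log2(CPM + 0.5). The defining T-cell marker Cd3e was at 0 in all 6 libraries.

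**Figure D2:**
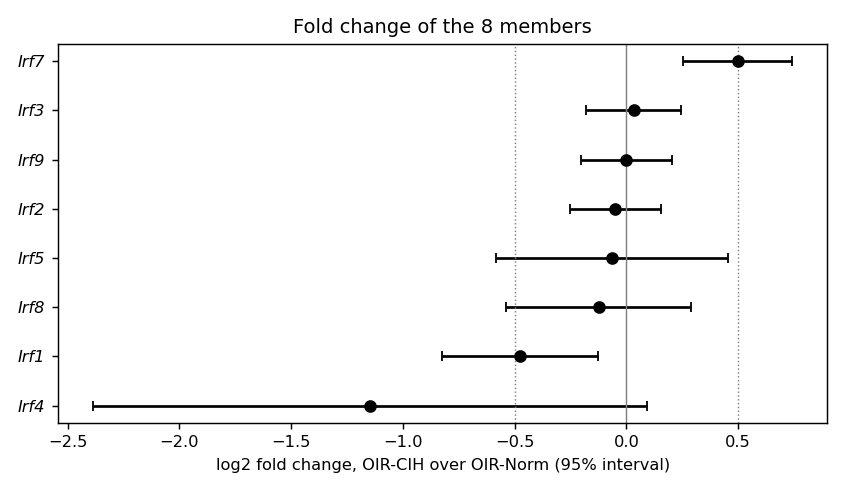
Log2 fold change of OIR-CIH over OIR-Norm (axis in log2 units) for the 8 IRF genes, with points for the edgeR estimate and bars for the 95% interval. Only the intervals of Irf7 (0.25 to 0.74) and Irf1 (-0.82 to -0.13) leave out 0, and neither gene passed after adjustment over all genes.

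Per kilobase of annotated exon, the scale on which genes can be compared, Irf3 was the most abundant member and Irf4 the least. In OIR-Norm, Irf3 was at 16.2 ± 1.71, Irf7 at 8.79 ± 1.47 and Irf2 at 3.97 ± 0.347 CPM per kb (SD, n = 3). Irf9 followed at 3.43 ± 0.0935, Irf1 at 2.25 ± 0.446 and Irf5 at 1.18 ± 0.394 CPM per kb. Irf8 at 0.694 ± 0.149 and Irf4 at 0.0640 ± 0.0353 CPM per kb closed the order. The 2 activators of interferon genes thus led, and the lymphoid and myeloid factors came last. The order of the means was the same in OIR-CIH, where Irf3 was at 16.6 ± 1.52 and Irf7 at 12.4 ± 0.727 CPM per kb. Neighbours in this order overlapped between libraries for Irf5 and Irf8 in OIR-Norm and for Irf2 and Irf9 in OIR-CIH.

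**Figure D3:**
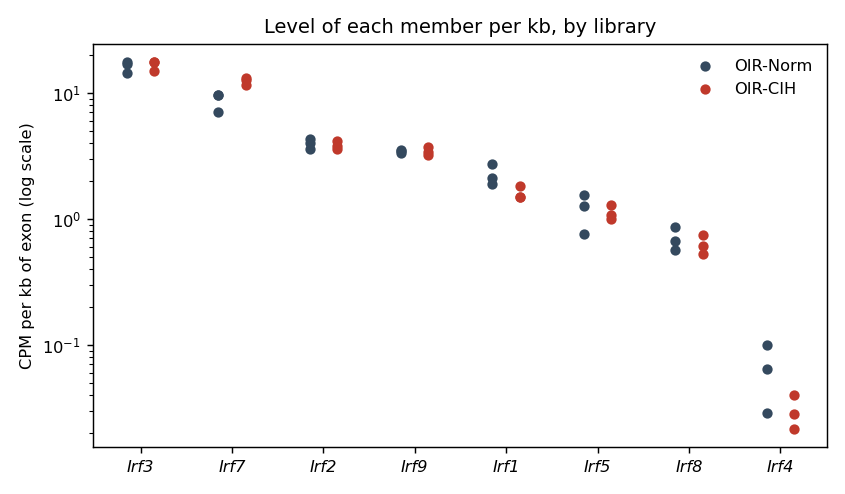
Level of each IRF gene in CPM per kilobase of annotated exon (log axis) in OIR-Norm and OIR-CIH, with points for libraries. Irf3 and Irf7 lead in both groups, and Irf4 lies lowest, at 0.0640 CPM per kb in OIR-Norm and 0.0300 in OIR-CIH.

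As a share of the summed family level per kb, Irf7 made up 31.3 ± 0.4996% in OIR-CIH and 24.0 ± 4.12% in OIR-Norm. Irf3 made up 41.8 ± 1.75% and 44.2 ± 3.53%, and Irf1 4.06 ± 0.747% and 6.14 ± 1.18%. Shares of a whole are tied, so a larger share of Irf7 lowers the others. The level of Irf3 itself was 16.6 CPM per kb in OIR-CIH and 16.2 in OIR-Norm. The summed level of the family overlapped between groups, at 40.8, 40.8 and 37.3 CPM per kb in OIR-CIH and 35.5, 36.6 and 37.6 in OIR-Norm.

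Ratios within a library do not depend on how libraries are scaled, and 3 were compared. The log2 ratio of Irf7 to Irf3 per kb was -0.47, -0.42 and -0.35 in OIR-CIH and -0.57, -1.25 and -0.86 in OIR-Norm. Irf7 was below Irf3 in every library, and the groups did not overlap. The difference was 0.48, with an exact permutation p of 0.1 and 0.2 after adjustment over the 3 ratios, and 0.30 without OIR-Norm 2. The log2 ratio of Irf1 to Irf2 differed by -0.43 and that of Irf7 to Irf8 by 0.65, each with overlapping groups and an exact permutation p of 0.2, raw and adjusted. Without OIR-Norm 2 these differences were -0.29 and 0.34.

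Among the cofactors that bind IRFs, 1 of 12 was called higher and 0 lower, against 0.105% and 0.21% of all genes tested. By sign 4 were higher and 8 lower, with a median log2 fold change of -0.25 (-0.14 without OIR-Norm 2), against -0.0050 over all genes tested. The called gene was Irf2bp2, a co-repressor of IRF2. It was at 56.9, 50.3 and 56.1 CPM in OIR-CIH and 42.4, 37.0 and 35.4 CPM in OIR-Norm, without overlap. Its log2 fold change was 0.51, SE 0.09, with an edgeR Benjamini-Hochberg adjusted p of 0.0309, and the call was lost in 5 of 6 fits that left out 1 library (adjusted p 0.0233 to 0.185), kept only without OIR-Norm 1. It was also lost with library size alone, at a log2 fold change of 0.48, and with the Y-linked covariate (adjusted p 0.0780). Its relative Irf2bp1 was at 64.4 ± 8.26 and 64.3 ± 7.43 CPM, and Irf2bpl at 71.2 ± 12.5 and 61.4 ± 5.23 CPM, neither called. Bcl6, a repressor, had a log2 fold change of -0.52 with an edgeR adjusted p of 0.0919, and DESeq2 called it lower. Spi1, the partner of IRF8 and IRF4 on DNA, was at 1.11 ± 0.158 and 1.53 ± 0.328 CPM with an edgeR adjusted p of 0.467.

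Upstream of the family, 0 of 28 tested sensing genes were called, by edgeR, DESeq2, limma or limma-voom. By edgeR 3 had an unadjusted p under 0.05, all on the lower side, against 13.4% of all genes tested. These were Tirap and Myd88, adaptors of Toll-like receptors, and Tlr4, the receptor for lipopolysaccharide, with log2 fold changes of -0.48, -0.29 and -0.86 and edgeR adjusted p of 0.172, 0.339 and 0.235. The median of the list was -0.04, from -0.075 to -0.020 without OIR-Norm 1 or OIR-Norm 2. Of 21 interferon genes in the table, none reached the filter and 19 had 0 reads in all 6 libraries, Ifnb1 among them. Ifng and Ifnab had 1 read each, in OIR-Norm 1 and OIR-Norm 3, so interferon transcripts were not detectable at this depth.

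Of 11 receptor, JAK and STAT genes, 0 were called by any of the 4 tools. By edgeR 2 had an unadjusted p under 0.05, Il10rb and Ifnar2, both on the lower side, against 13.4% of all genes tested. The median was -0.01, from -0.054 without OIR-CIH 2 to 0.0069 without OIR-Norm 3. Stat2, a partner of IRF9, was at 47.3 ± 3.58 CPM in OIR-CIH and 48.6 ± 5.00 CPM in OIR-Norm, with an edgeR adjusted p of 0.884 and overlap between groups. Of 16 inhibitors of interferon signalling, 1 was called, against 0.315% of all genes tested. This was Socs3, an inhibitor of JAK signalling, which fell from 20.9 ± 8.95 CPM in OIR-Norm to 8.21 ± 0.526 CPM in OIR-CIH. Its log2 fold change was -1.34 with an edgeR adjusted p of 0.0276. That call was lost without any 1 of the 3 OIR-CIH libraries and with limma-voom (adjusted p 0.0502). The median of the inhibitors was 0.04, with 8 higher and 8 lower by sign, and went to -0.032 without OIR-Norm 2 and -0.0099 without OIR-CIH 1. At an unadjusted p under 0.05 by edgeR there was 1 inhibitor on the higher and 2 on the lower side, against 13.4% of all genes tested. Beside Socs3 these were the phosphatase Ptpn6, at -0.68 on the log2 scale, and Pias3, an inhibitor of activated STAT factors, at 0.20, with edgeR adjusted p of 0.223 and 0.299 and no overlap between groups in either. Usp18, which restrains the receptor, had a log2 fold change of 0.46 and an adjusted p of 0.395 by the same test.

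Downstream, 25 of 37 tested interferon-stimulated genes were higher in OIR-CIH by sign and 12 lower, with a median log2 fold change of 0.26 (0.14 without OIR-CIH 3). Groups did not overlap for 13 of them, against 18.4% of all genes tested, and of these Gbp2 was on the lower side, at -0.37. At an unadjusted p under 0.05 by edgeR there were 11 on the higher and 1 on the lower side, against 13.4% of all genes tested. By the test, 1 was called, against 0.315% of all genes tested. This was Oasl2, an antiviral protein of the oligoadenylate synthetase family. It was at 16.8 ± 1.12 CPM in OIR-CIH and 10.8 ± 0.750 CPM in OIR-Norm, a log2 fold change of 0.64 with an edgeR adjusted p of 0.0199. That call was lost in 5 of 6 fits without 1 library, kept only without OIR-Norm 1, and with the replicate block (adjusted p 0.0564). Oas1a, Lgals3bp and Ddx60 had log2 fold changes of 1.92, 0.49 and 0.69 with edgeR adjusted p of 0.157, 0.216 and 0.220. Oas1a was near the limit of detection in OIR-Norm, at 0.357, 0.0351 and 0.188 CPM, where 3 reads correspond to 0.0789 to 0.114 CPM over the 6 libraries. The summed level of the list was 191 to 223 CPM in OIR-CIH and 166 to 198 CPM in OIR-Norm, which overlap. On the log2 scale, the ratio of Irf7 to that sum, Irf7 itself left out, was -2.17 ± 0.173 in OIR-CIH and -2.46 ± 0.277 in OIR-Norm.

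**Figure D4:**
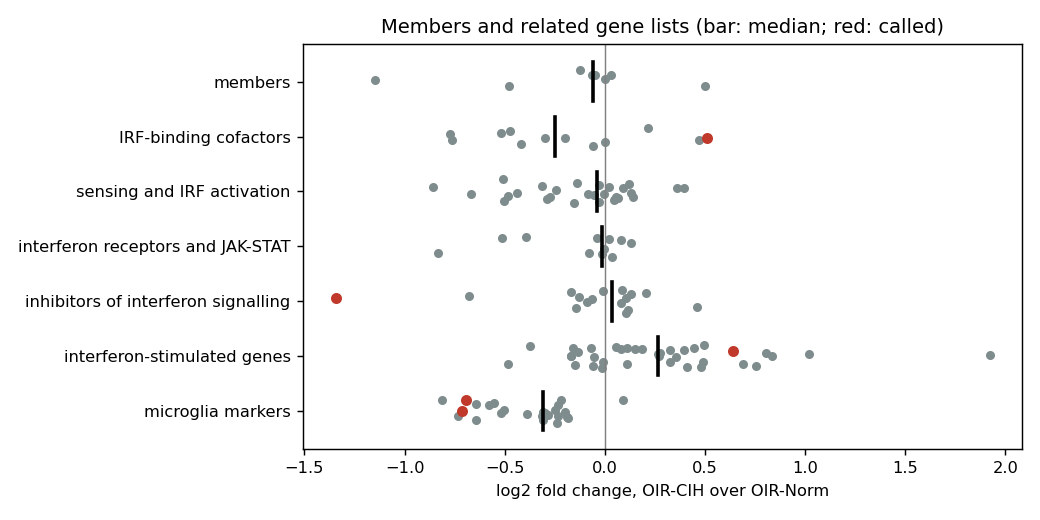
Log2 fold change of OIR-CIH over OIR-Norm (axis in log2 units) for the 8 IRF genes, the tested lists of the interferon pathway and the microglia markers, with a point for each gene tested, red where called, and a bar for the median. The interferon-stimulated genes have a median of 0.26 and the microglia markers a median of -0.31.

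Markers of microglia lay lower in OIR-CIH. Of 25, 24 were lower by sign with a median log2 fold change of -0.31. Groups did not overlap for 13, against 18.4% of all genes tested. At an unadjusted p under 0.05 by edgeR there were 14, all on the lower side, against 13.4% of all genes tested. The test called 2 lower, against 0.21% of all genes tested. These were Mpeg1, a pore-forming protein of macrophages, and Fcrls, a microglial receptor. Their log2 fold changes were -0.71 and -0.69, with edgeR adjusted p of 0.0123 and 0.0293. DESeq2 called Mpeg1, Fcrls and also Cx3cr1 lower. The call of Mpeg1 was lost without OIR-CIH 1 or OIR-CIH 2 (adjusted p 0.0928 and 0.0506), and that of Fcrls in 5 of 6 fits without 1 library, kept only without OIR-Norm 2. The call of Fcrls was also lost with limma (adjusted p 0.0549), the replicate block (0.0618) and the Y-linked covariate (0.0796). Summed microglia markers were at 194 to 216 CPM in OIR-CIH and 240 to 271 CPM in OIR-Norm, which do not overlap, while Csf1r, a receptor microglia need, was at 19.0 ± 2.29 and 21.7 ± 3.06 CPM. In bulk RNA, fewer cells of a type and less RNA per cell cannot be told apart. The log2 ratio of Irf8 to the microglia sum was -5.53 ± 0.188 in OIR-CIH and -5.75 ± 0.238 in OIR-Norm, and that of Irf7 -2.11 ± 0.168 and -2.98 ± 0.313. The exact permutation p was 0.3 for Irf8 and 0.1 for Irf7. This ratio was also higher in OIR-CIH for Irf2, Irf3, Irf5 and Irf9, with differences of 0.31, 0.39, 0.32 and 0.36. It was lower for Irf1 and Irf4, with differences of -0.12 and -0.61. The part of microglia in the values of Irf1, Irf5, Irf7 and Irf8 was not tested.

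Markers of lymphocytes, dendritic cells and blood myeloid cells summed to 36.0 to 43.5 CPM in OIR-CIH and 40.4 to 42.4 CPM in OIR-Norm, with a median log2 fold change of -0.10, 0 of 13 called by any of the 4 tools and 1 at an unadjusted p under 0.05. That median ran from -0.43 (without OIR-Norm 1) to -0.12 (without OIR-Norm 2) with 1 library left out. Endothelial markers summed to 294 to 336 and 296 to 384 CPM, and pigment epithelium and melanocyte markers to 356 to 539 and 252 to 561 CPM, with overlap in both and medians of -0.21 and -0.04. The endothelial median was 0.12 without OIR-Norm 2 and the pigment median 0.24 without OIR-Norm 1. None of these was called, and 1 and 2 genes had an unadjusted p under 0.05. Over all genes tested, 13.4% did so by edgeR. Their part in the values of the IRF genes was not tested.

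**Figure D5:**
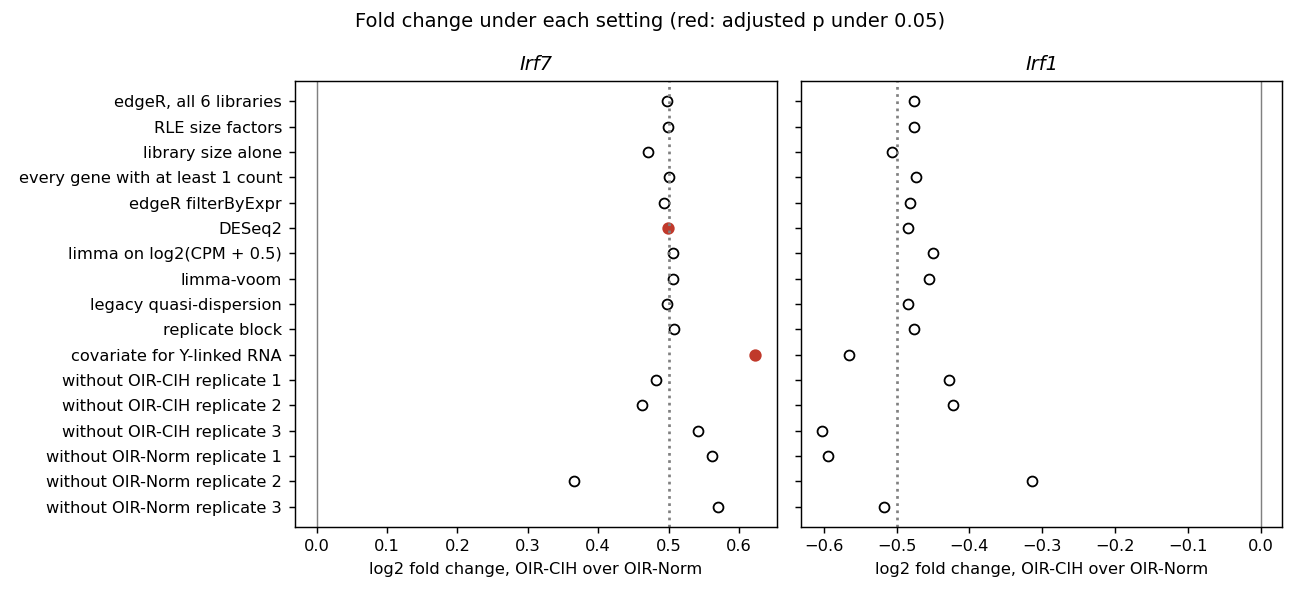
Log2 fold change of Irf7 and Irf1 (axis in log2 units) under each alternative setting and with each library left out in turn, with red points for an adjusted p under 0.05 and a dotted line at the fold threshold. Irf7 stays above 0, from 0.37 to 0.62, and Irf1 below 0, from -0.60 to -0.31.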

How the data were processed

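The data are 6 bulk RNA libraries of PN18 retinas, 3 per group. The authors prepared stranded mRNA libraries from 250 ng of RNA, aligned the reads with STAR 2.7.9a and deposited its raw counts per gene in 1 table, without normalization. Their methods name a later Ensembl release than the GRCm38 build in the submitters' processing notes, and the strand column kept is not given in the sources used here. Of 32285 gene identifiers, 32158 matched a symbol in GENCODE M21 (GRCm38), which also gave gene positions and exon lengths. Promoters came from RefSeq GRCm38.p6.

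Genes whose counts summed to 10 or more were tested with edgeR 4.0.16 (R 4.3.3, glmQLFit, TMM scaling, no covariate) and p-values were adjusted by Benjamini-Hochberg over all genes tested. CPM are TMM-scaled. SE is the absolute log2 fold change over the root of F. Single values and 3 ratios, with 0.5 reads added, were also tested by exact two-sided permutation. Alternatives were DESeq2 1.42.0, limma 3.58.1 on log2(CPM + 0.5), limma-voom, other scalings and filters, the legacy quasi-dispersion, a replicate block, a Y-linked RNA covariate and each library left out in turn; ratios to list sums and genes near the members were added after seeing the data. The scripts were tested on simulated data.

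All 8 members are named, with, from each list, up to 4 genes of lowest p, every called gene up to 6 and Irf2bp1, Irf2bp2, Irf2bpl, Spi1, Stat2, Ifnb1, Ifng and Csf1r always, and the 5 genes of scaled profile most like the member of lowest p; Cd3e and Ifnab were named after their values were seen, and 1 gene the rule names is not reported here. The members and lists were chosen with earlier results of these data known. Totals of 26289905 to 38010151 counts limit the precision of low genes, and floors of 3 counts cover counting error only.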

Additional observations from a re-analysis of the deposited data

How the results depend on the processing

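Of 270 values under the alternatives, 232 counted as unchanged, 20 moved, 1 passed the threshold and 17 reversed. Those that moved were 3 counts of genes called over the whole table, 1 count of members called and 16 medians of lists. The reversed values were all of members whose own 95% interval held 0. For a member, unchanged meant the same direction and the same call, and for a ratio the same direction alone. For a median it meant a move smaller than the spread between libraries of a group. A count of called genes had to stay within a fixed ratio of the main count. Irf9 was at -0.0276 with library size alone, -0.0047 with filterByExpr, -0.00084 with limma, -0.0051 with limma-voom, -0.0012 with the replicate block and -0.0085 with the Y-linked covariate, where Irf3 was at -0.0084. Leaving out 1 library gave ranges of -0.12 to 0.0047 for Irf2, -0.057 to 0.10 for Irf3, -0.31 to 0.16 for Irf5, -0.29 to 0.047 for Irf8 and -0.064 to 0.049 for Irf9. With the Y-linked covariate 1 member was called, Irf7, at 0.62 with an edgeR adjusted p of 0.0491; the cause was not tested. Irf7 was otherwise at adjusted p 0.0748 to 0.382 with 1 library left out, and DESeq2 gave an adjusted p of 0.00475 with a fold change under the minimum. Genes called over the whole table were 63, 135 with DESeq2 and 29 (without OIR-CIH 1) to 97 (without OIR-Norm 3) with 1 library left out. Same-numbered libraries correlated in their deviations by 0.162, 0.143 and -0.238, and 2 of 6 correlated best with their own number, so the numbers were not taken to pair them; the replicate block gave 68 called genes, 0 of them members, and 0.51 for Irf7 with an edgeR adjusted p of 0.151. Irf4, with 4 to 15 reads a library, was not tested under filterByExpr.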

Other observations

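The genes next to the members on the chromosome were compared as well, a choice made after seeing the data. Phrf1 overlaps Irf7 on the opposite strand over 45 exon bases, or 1.19% of the exon bases of Irf7, and its log2 fold change was -0.05 with an edgeR Benjamini-Hochberg adjusted p of 0.813. Drd4, a dopamine receptor, and Rassf7 also lie within 50 kb of Irf7 and were at 0.22 and 0.30, with adjusted p of 0.416 and 0.299 by the same test. Also within that distance, Sct, Cdhr5, Deaf1 and Lmntd2 were at 0.27, -0.01, 0.06 and -0.10. Beside Irf9, the proteasome activator genes Psme1 and Psme2, which interferon gamma is known to induce, were at 0.20 and 0.24 without overlap between groups, with edgeR adjusted p of 0.350 and 0.284. Groups did not overlap for 18.4% of all genes tested. The other genes tested within 50 kb of Irf9 overlapped between groups. Among them Rnf31, Ipo4 and Dcaf11 were at -0.07, -0.01 and -0.008, and Rec8 was at 0.26.

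Over the 6 libraries, the scaled profiles of log2(CPM + 0.5) most like that of Irf7 among 14800 genes with a mean of at least 1 CPM were those of Sirt3, Cops9, Hist3h2ba, Smad2 and Fance. Their root mean square differences from Irf7 were 0.0438, 0.0602, 0.0928, 0.101 and 0.108, in SD units. Sirt3, a mitochondrial deacetylase, had a log2 fold change of 0.28 and Smad2, a mediator of TGF-beta signalling, one of 0.08, and none of the 5 was called. This is a description over 6 points that share libraries and scaling.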
